A study of Mus musculus with 16 samples.

Results

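The lysosomal genes described here were 55 mouse genes chosen by name: 10 cathepsins, 13 glycosidases and sulphatases, 8 other hydrolases and hydrolase cofactors, 9 lysosomal membrane or lumenal transport proteins, 12 subunits and accessory proteins of the vacuolar proton pump (V-ATPase) and the transcription factors Tfeb, Tfe3 and Mitf. They were followed among 54193 annotated genes in 16 RNA-seq libraries of mouse brain microvascular endothelial cells (mBMEC), primary cells cultured from the brains of adult mice of 8 to 10 weeks that carried a floxed Pdcd10 (Ccm3) gene and the Cdh5 (PAC)-CreERT2 transgene, a tamoxifen-inducible Cre driven by an endothelial promoter. Cells left without 4-hydroxytamoxifen are called WT and cells given it are called KO, so that exposure to this drug and loss of Pdcd10 cannot be told apart in any KO against WT difference. WT cells, which carried the same floxed alleles and the same transgene, were left untreated (WT, n = 3) or kept for 24 h in propranolol at 10 µM (WT+P, n = 2) or in rapamycin at 100 nM (WT+R, n = 2). KO cells were left untreated (KO, n = 3) or given the same propranolol (KO+P, n = 3) or rapamycin (KO+R, n = 3) treatment. Per the study's methods each culture pooled the brains of several mice and was puromycin-selected, so a replicate was a pooled culture and not a single animal.

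Library totals ran from 18.83 M to 26.2 M estimated counts. Pdcd10 itself was at 31.2 and 47 CPM (counts scaled to a common library size) in WT replicates 2 and 3 and between 27.7 and 60.8 CPM in treated WT cells, against 9.72 to 11 CPM in KO, 13.1 to 16.7 CPM in KO+P and 7.83 to 9.53 CPM in KO+R. The library labelled WT replicate 1 was at 11.5 CPM, close to the KO libraries and against its label. All 10 endothelial markers had a median over the 16 libraries above 1 CPM, with a summed level of 6698 to 14270 CPM. None of the 11 macrophage and microglia markers had a median above 1 CPM. Their summed level was 0.223 to 2.01 CPM in single libraries, so the defining genes of that lysosome-rich cell type were at low levels. The 5 fibroblast markers summed to between 2.64 and 186 CPM and were highest in replicate 3 of the untreated and rapamycin-treated groups. Libraries that shared a replicate number deviated together from their group means, and results are also given with the replicate number as a block where this changed a call.

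Lysosomes are acidic organelles that degrade proteins, glycans and lipids. The V-ATPase pumps protons into the lumen by means of a cytosolic V1 sector, which hydrolyses ATP, and a membrane V0 sector, which carries the protons, and the low pH activates the cathepsins, glycosidases and lipases delivered there. TFEB, TFE3 and MITF are related transcription factors that bind E-box sequences with the core CACGTG, including the CLEAR element found in promoters of lysosomal genes. The kinase complex mTORC1, which rapamycin inhibits in part, phosphorylates TFEB at the lysosomal surface and keeps it in the cytosol. Propranolol is a beta-blocker and a cationic amphiphilic amine, a chemical class known to accumulate in acidic compartments.

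Of the 55 genes, 54 had enough counts to be tested, and Ctss, a cathepsin of immune cells, was left out at 0 to 0.516 CPM. On the TPM scale, which corrects for transcript length, the highest median levels over the 16 libraries were those of Ctsd (1462 TPM), Lamp1 (1065 TPM), Atp6v0c (1043 TPM) and Cd63 (1009 TPM). The lowest tested genes were Mitf (1.17 TPM), Ctsk (2.43 TPM) and Mcoln2 (4.82 TPM). Among the transcription factors Tfe3 (27.6 TPM) stood above Tfeb (18.6 TPM), but the lowest Tfe3 library (23.6 TPM) was below the highest Tfeb library (27.6 TPM). The summed level of the 54 tested genes and Ctss lay between 13181 and 16981 CPM in the 16 libraries.

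A gene was called changed when edgeR's quasi-likelihood test over the 14838 tested genes gave a Benjamini-Hochberg adjusted p under 0.05 and the fold change exceeded 1.5. Rapamycin, averaged over the genotypes, changed 2 of the 54 genes (background, 5.29% of all genes tested): the cathepsin gene Ctsf was higher and the ion channel gene Mcoln2 was lower. Against KO, KO+R changed 1 of 54 (background 1.51%), the V-ATPase gene Atp6v1a, which was lower, and against WT, WT+R changed 0 of 54 (background 1.4%), with 10 genes at an unadjusted p under 0.05 (background 12.6%) and 1 call by DESeq2 (background 3.88%). Propranolol changed 0 of 54 by edgeR averaged over the genotypes (background 1.58%), with 19 genes at an unadjusted p under 0.05 (background 22.1%) and 0 calls by DESeq2 (835 among all genes). It changed 0 of 54 in KO+P against KO and 0 of 54 in WT+P against WT (background 0.00674% in each), with 10 and 4 genes at an unadjusted p under 0.05 (background 12.6% and 9.87%) and 0 calls by DESeq2 in either (164 and 119 among all genes). KO against WT changed 0 of 54 by edgeR (background 0.00674%), with 7 genes at an unadjusted p under 0.05 (background 6.07%), 0 calls by DESeq2 (64 among all genes) and 3 by DESeq2 with the replicate block (background 2.78%). For the drug by genotype interactions, no gene of the 54 was called by edgeR (background 0% for both drugs) or by DESeq2, which called 0 genes of all for propranolol and 1 for rapamycin, and 0 of 54 had an unadjusted p under 0.05. Without the library labelled WT replicate 1 the number of genes called by edgeR was the same in each comparison that used it. The comparisons with a drug share their untreated libraries with each other and with KO against WT, and each is therefore given by its own values.

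**Figure D1:**
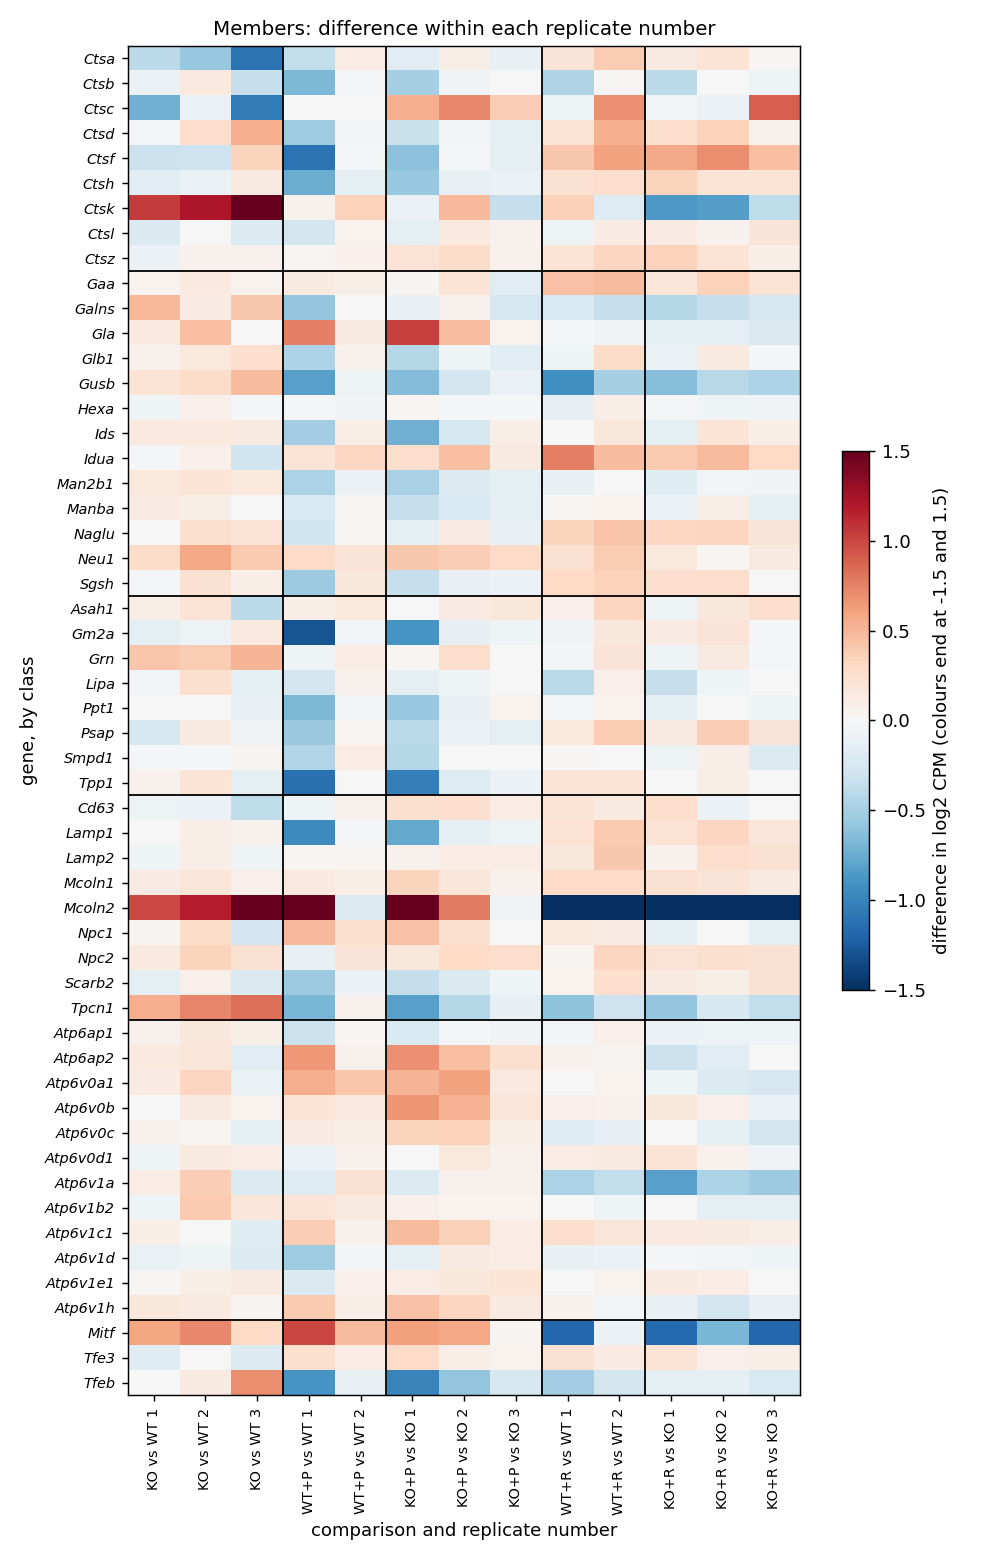
Difference in log2 CPM of the 54 tested genes (rows, by class) between libraries of the same replicate number (columns: KO minus WT, and each treated library minus the untreated library of its genotype). Mcoln2 was darkest in all 5 rapamycin columns, and the propranolol columns of replicate 1 held the strongest colours among the propranolol columns.

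To show which of these genes carry the letters that TFEB-family factors are known to bind, windows from 250 bases before to 50 bases after the start of each gene's canonical transcript were read from the GRCm39 genome. The core CACGTG, which reads alike on both strands, was found in 14 of the 54 windows (25.9%), against 9.84% of the 13112 windows of protein-coding genes tested. The longer CLEAR letters TCACGTGA, which contain the core and also read alike on both strands, were found in 3 of 54 (5.56%), namely Ctsb, Mcoln1 and Gla, against 1.64% of all windows. In the windows of 67 other lysosomal genes, described at the end, the core was found in 26.9% and TCACGTGA in 16.4%. Neither share was therefore particular to the 54 genes. By class the core was present in 5 of 13 glycosidases and sulphatases, 3 of 9 tested cathepsins, 3 of 9 membrane proteins and 3 of 12 V-ATPase genes, and in 0 of 8 other hydrolases and cofactors and 0 of 3 transcription factors. These matches describe letters and not binding. The 30 bases around the first core are shown for the genes whose rapamycin values are discussed next and for further membrane and V-ATPase genes with a core, 5′ to 3′ on the strand of the gene with the core in capitals (GRCm39).
Ctsf, chr19:4905102-4905131, plus strand: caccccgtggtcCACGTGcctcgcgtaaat
Mcoln2, chr3:145855845-145855874, plus strand: tccctgagctcaCACGTGgaccccattctg
Atp6v1a, chr16:43960249-43960278, minus strand: gccgctcctccaCACGTGcactcgggacac
Naglu, chr11:100960835-100960864, plus strand: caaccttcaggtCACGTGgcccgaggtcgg
Gaa, chr11:119158637-119158666, plus strand: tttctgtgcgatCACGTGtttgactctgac
Lamp1, chr8:13209088-13209117, plus strand: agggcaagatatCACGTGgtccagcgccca
Mcoln1, chr8:3550436-3550465, plus strand: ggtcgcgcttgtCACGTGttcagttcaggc
Atp6v0b, chr4:117744545-117744574, minus strand: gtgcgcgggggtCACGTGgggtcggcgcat
Atp6v1h, chr1:5153300-5153329, plus strand: ctcagctgcggtCACGTGcggctgctcacg
The core lay 249 bases before the start site in Atp6v1a, 72 before it in Mcoln2 and 64 before it in Gaa. In Ctsf and Mcoln1 it began 4 bases before the start site and ran across it. Lamp1 held 4 cores in its window, while Mcoln1, Atp6v0b and Atp6v1h held 2 each.

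Among the transcription factors, no gene was called by edgeR with all libraries and without the replicate block, while Mitf, with negative differences under rapamycin, was called with the block and by DESeq2, and Tfeb, with negative differences under propranolol, was called neither by edgeR with the block nor by DESeq2. Mitf, the family member best known from melanocytes, was at 2.35, 2.61 and 3.2 CPM in WT, 0.985 and 2.45 CPM in WT+R, 3.56, 4.36 and 3.95 CPM in KO and 1.54, 2.67 and 1.69 CPM in KO+R. All KO+R libraries lay below all KO libraries, whereas WT+R replicate 2 overlapped WT. Averaged over the genotypes the log2 fold change under rapamycin was -0.83 ± 0.25 (SE) with an adjusted p of 0.0644 by edgeR, and with the replicate block it was -0.89 ± 0.23 with an adjusted p of 0.0209, which passed and made Mitf the third of 3 calls among the 54 genes with the block (background 9.81%). By DESeq2 without the block it was -0.82 with an adjusted p of 0.0208. Both WT+R libraries weighed on the edgeR value: without WT+R replicate 1 the log2 fold change was -0.57 (adjusted p = 0.266), and without WT+R replicate 2 it was -1.23 (adjusted p = 0.0183). Without KO+R replicate 2 it was -0.96 (adjusted p = 0.0488), which also passed. Under propranolol Mitf was at 4.76 and 3.67 CPM in WT+P and 5.5, 6.59 and 4.08 CPM in KO+P, a log2 difference of 0.54 ± 0.25 averaged over the genotypes that did not pass (edgeR adjusted p = 0.22).

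Tfeb, whose protein binds the CLEAR element, was at 29.8, 22.4 and 20.8 CPM in WT, 16.1 and 20.8 CPM in WT+P, 29.7, 24.7 and 33.8 CPM in KO and 14.9, 16.5 and 28.6 CPM in KO+P. KO+P replicate 3 lay within the KO range, and the other propranolol libraries were at or below the lowest untreated library of their genotype. The log2 fold change averaged over the genotypes was -0.48 ± 0.18, with an adjusted p of 0.143 by edgeR. Without KO+P replicate 3 it was -0.65 with an adjusted p of 0.0158, which passed, and in KO+P against KO it was then -0.91 with an adjusted p of 0.0416. In these fits Tfeb was the only call among the 54 genes, beside 1035 calls among all genes in the averaged comparison and 332 in KO+P against KO. Under rapamycin Tfeb was at 20.8 and 18.5 CPM in WT+R and 27.1, 22.5 and 28.8 CPM in KO+R, a log2 difference of -0.24 ± 0.18 (adjusted p = 0.471). Tfe3 was at 44.6 to 67.5 CPM in all 16 libraries, with averaged log2 differences of 0.13 ± 0.13 under each drug and adjusted p of 0.572 for propranolol and 0.608 for rapamycin. Its levels were 57.3, 44.6 and 57.9 CPM in WT, 67.5 and 48.1 CPM in WT+P and 67.3 and 48.5 CPM in WT+R. In KO cells they were 50.6, 44.8 and 50.4 CPM in KO, 61.7, 48 and 52.3 CPM in KO+P and 58.5, 47.3 and 54.1 CPM in KO+R. In KO against WT no factor passed, and the smallest adjusted p of the 3 was 0.967. Tfec, a further member of this family that was not among the 55 genes, was lower under rapamycin (log2 fold change -1.03 ± 0.29, adjusted p = 0.0453 by edgeR), at 8.88, 13.3 and 28.1 CPM in WT, 6.62 and 8.16 CPM in WT+R, 4.57, 9.18 and 10.3 CPM in KO and 4.02, 4.14 and 4.9 CPM in KO+R.

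**Figure D2:**
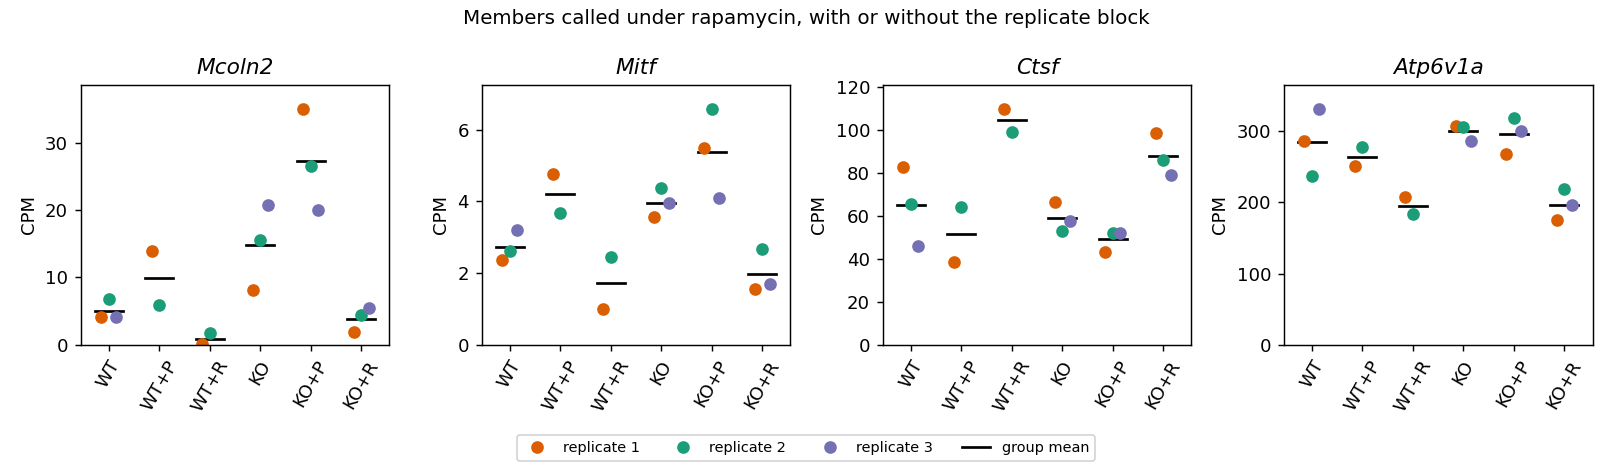
CPM of Mcoln2, Mitf, Ctsf and Atp6v1a in each of the 16 libraries (points, coloured by replicate number) with group means (lines). For Mcoln2 and Atp6v1a every rapamycin library lay below every untreated library of its genotype, and for Ctsf every rapamycin library lay above them.

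The V-ATPase showed 1 gene lower under rapamycin, Atp6v1a, and several genes with small, uncalled positive differences under propranolol. Atp6v1a encodes the catalytic, ATP-hydrolysing subunit of the V1 sector (chr16:43887852-43960076, minus strand, GRCm39). It was at 286, 237 and 332 CPM in WT, 207 and 183 CPM in WT+R, 308, 306 and 287 CPM in KO and 175, 219 and 197 CPM in KO+R, and the treated and untreated libraries did not overlap in either genotype. In KO+R against KO the gene was 1.52-fold lower (log2 fold change -0.61 ± 0.13, adjusted p = 0.0384 by edgeR). In WT+R against WT the log2 difference was -0.55 ± 0.15 with an adjusted p of 0.0956. Averaged over the genotypes it was 1.49-fold lower (log2 -0.58 ± 0.10, adjusted p = 0.0039), just short of the 1.5-fold threshold. The KO+R call was lost without any single library of the 6, with adjusted p of 0.0896 to 0.226, while the log2 difference stayed between -0.67 and -0.50. Under propranolol Atp6v1a showed an averaged log2 difference of -0.07 ± 0.10 (adjusted p = 0.738).

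No other V-ATPase gene had an unadjusted p under 0.05 under rapamycin averaged over the genotypes, and the median log2 difference of the 12 was -0.08 beside -0.02 for all genes tested. Under propranolol 5 of the 12 had an unadjusted p under 0.05, all with positive differences (background 12.4% of all genes higher at that level), and the median log2 difference was 0.13 beside 0.00. In KO+P against KO the same measure was 5 of 12 (background 6.93%), and the libraries did not overlap, treated above untreated, for 5 of 12 (background 9.58%): Atp6v0a1, Atp6v0b, Atp6v1c1, Atp6v1h and Atp6ap2. Of the exonic bases of Atp6v0b, 55.1% are shared with a gene on the opposite strand. In WT+P against WT 1 of the 12 was higher and 1 lower at an unadjusted p under 0.05 (background 6.7% and 3.17%), and 1 was higher and 1 lower without overlap (background 10.8% and 10.3%). The 10 endothelial markers moved with propranolol too, all 10 with negative averaged log2 differences (median -0.60, 6 at an unadjusted p under 0.05). By edgeR 0 were called without the replicate block and 1 was called lower with it (background 1.25%). Their sum went from 11029 to 14270 CPM in WT to 6698 and 10567 CPM in WT+P and from 11342 to 12478 CPM in KO to 7185 to 10737 CPM in KO+P. The part of these markers in the V-ATPase values was not tested. Atp6v0a1, the large V0 subunit that anchors the pump, was at 137, 118 and 164 CPM in WT, 202 and 158 CPM in WT+P, 149, 147 and 153 CPM in KO and 212, 223 and 170 CPM in KO+P. The KO+P libraries were all above KO, whereas WT+P replicate 2 lay below the highest WT library. The averaged log2 fold change was 0.40 ± 0.10 (1.32-fold, edgeR adjusted p = 0.0679), and with the replicate block the adjusted p was 0.0447 at a fold below 1.5. Atp6v1h, the regulatory subunit that couples both sectors, was at 108, 122 and 118 CPM in WT, 141 and 131 CPM in WT+P, 121, 133 and 122 CPM in KO and 165, 167 and 134 CPM in KO+P. Treated libraries were above untreated libraries in both genotypes, with an averaged log2 fold change of 0.27 ± 0.07 and an adjusted p of 0.0775. Within replicate numbers, 7 of the 12 V-ATPase genes were higher in all 5 propranolol libraries and 0 were lower in all 5 (background 14.6% higher and 15.4% lower). Under rapamycin the counts were 1 higher and 3 lower (background 18.5% and 22.9%). For both drugs the untreated partners include the library labelled WT replicate 1, whose Pdcd10 level was close to the KO libraries. Atp6ap2, an accessory protein also known as the prorenin receptor, ranged in KO+P from 167 CPM in replicate 3 to 260 CPM in replicate 1, against 141 to 166 CPM in KO.

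**Figure D3:**
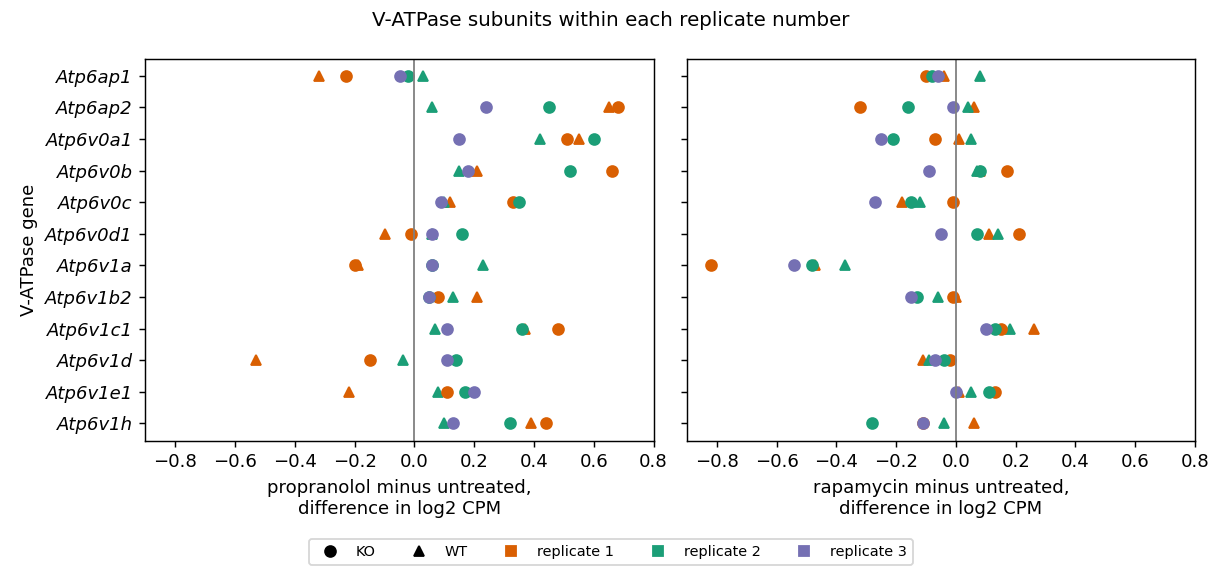
Difference in log2 CPM between each treated library and the untreated library of the same genotype and replicate number for the 12 V-ATPase genes (rows), propranolol on the left and rapamycin on the right. Atp6v1a was the gene furthest to the left under rapamycin, between -0.82 and -0.37, and Atp6v0a1 lay between 0.15 and 0.60 under propranolol.

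The hydrolases showed 1 call, Ctsf under rapamycin, together with smaller differences in 3 glycosidases that passed the adjusted p but not the fold threshold. Ctsf, a papain-like cysteine cathepsin (chr19:4905118-4915986, plus strand), was at 82.9, 65.5 and 46.1 CPM in WT, 110 and 99.3 CPM in WT+R, 66.3, 53 and 57.8 CPM in KO and 98.7, 86 and 78.8 CPM in KO+R. Each WT+R library was above each WT library and each KO+R library above each KO library. The averaged change was 1.55-fold (log2 0.63 ± 0.16, adjusted p = 0.028 by edgeR). The call held in 4 of the 11 fits that left out 1 library, with log2 fold changes of 0.55 to 0.75 and adjusted p of 0.0129 to 0.109, the highest without WT+R replicate 1. Of the exonic bases of Ctsf, 13.8% are shared with the oppositely oriented gene Actn3, whose reads cannot be told apart in unstranded libraries.

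Idua, which removes iduronic acid from heparan and dermatan sulphate, was at 52.1, 45.4 and 68.6 CPM in WT, 88.1 and 63.5 CPM in WT+R, 51, 48 and 55.8 CPM in KO and 67, 66.6 and 68.8 CPM in KO+R. The KO groups were separated and the WT groups overlapped, with an averaged 1.34-fold difference (adjusted p = 0.0343). Naglu, a further enzyme of heparan sulphate breakdown, differed 1.26-fold (adjusted p = 0.049), and Gaa, the acid alpha-glucosidase that degrades glycogen, 1.23-fold (adjusted p = 0.0428). In all, 4 genes of the 54 were higher and 2 lower under rapamycin at an adjusted p under 0.05 whatever the fold (background 4.04% higher and 4.18% lower), and with the replicate block these counts were 9 and 5 (background 8.76% and 10.1%). Those added with the block were Ctsd, Ctsz, Lamp2, Npc2 and Mcoln1 among the higher and Gusb, Mitf and Tpcn1 among the lower. Gusb, the beta-glucuronidase, was at 152, 175 and 151 CPM in WT, 80.3 and 124 CPM in WT+R, 177, 212 and 209 CPM in KO and 114, 159 and 151 CPM in KO+R. Its rapamycin libraries lay below the untreated libraries in both genotypes, the opposite direction to Ctsf, Idua and Naglu, at a log2 difference of -0.57 ± 0.19 (adjusted p = 0.0943, or 0.00507 with the block). Hexa, a subunit of beta-hexosaminidase, stayed between 253 and 352 CPM in all libraries. Ctsd and Psap, the aspartic protease and the precursor of the saposins that assist lipid hydrolysis, both had higher levels in all 5 rapamycin libraries than in the untreated library of the same number and were not called. Psap was at 1550, 1067 and 1266 CPM in WT, 1735 and 1393 CPM in WT+R, 1301, 1175 and 1227 CPM in KO and 1426, 1521 and 1396 CPM in KO+R.

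Within replicate numbers, 18 of the 54 genes were higher in all 5 rapamycin libraries than in their untreated partners and 11 were lower in all 5 (background 18.5% and 22.9%). For propranolol the counts were 18 and 10 (background 14.6% and 15.4%). All counts within replicate numbers use the library labelled WT replicate 1, with its Pdcd10 level against its label, as a partner. No such count without it is given. The 18 under rapamycin comprised 5 cathepsins, 5 glycosidases or sulphatases, 5 membrane proteins and single genes of the other classes. Of the 11 macrophage and microglia markers 2 were tested, and 1 was called lower under averaged rapamycin (edgeR adjusted p = 0.0461, background 3.05% lower). All 11 summed to 0.223 to 0.318 CPM in KO+R and 0.444 to 0.835 CPM in KO, and overlapped in WT+R and WT. The endothelial markers summed to 9637 and 10466 CPM in WT+R against 11029 to 14270 CPM in WT, and overlapped in KO+R and KO. The part of these markers in the rapamycin values was not tested.

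Under propranolol the libraries of a group were unequal, for the hydrolases as for all genes. In replicate 1, 7 of 30 hydrolases and cofactors (23.3%, beside 20.2% of all genes tested) were more than 1.5-fold lower in WT+P than in WT and 5 of 30 (16.7%, beside 20.4%) in KO+P than in KO, shares near those of all genes, with median log2 differences of -0.40 and -0.25 beside 0.00 over all genes in each. The count was 0 of 30 in WT+P replicate 2 (beside 7.16% of all genes), in KO+P replicate 2 (beside 13%) and in KO+P replicate 3 (beside 7.54%), and the medians were 0.04, -0.03 and -0.07. The cathepsin gene Ctsb was at 1703, 1136 and 1641 CPM in WT, 1073 and 1123 CPM in WT+P, 1601, 1263 and 1299 CPM in KO and 1133, 1221 and 1292 CPM in KO+P. Each propranolol library was below the untreated library of its number, by log2 differences of -0.67 to -0.01, and Ctsb was not called. Tpp1, a tripeptidyl peptidase, was at 450, 401 and 544 CPM in WT, 208 and 403 CPM in WT+P, 468, 465 and 498 CPM in KO and 229, 407 and 468 CPM in KO+P. Only the propranolol libraries of replicate 1 lay far below the rest, and the averaged log2 difference was -0.49 ± 0.19 (adjusted p = 0.163). Gm2a, the activator of ganglioside hydrolysis, was chosen after its values were seen and was at 32.6 and 39.2 CPM in these 2 libraries against 59.3 to 83.2 CPM in the other 14. Without WT+P replicate 2 the averaged comparison called 3 of the 54 genes, Gm2a and Tpp1 as lower and Gla, the alpha-galactosidase, as higher, beside 1335 calls among all genes in that fit, so the share of the 54 was no larger than that of all genes. Gla was at 25.7 and 34.3 CPM in the propranolol libraries of replicate 1, at 27.4 CPM in KO+P replicate 2 and at 14 to 19.9 CPM in the other 13 libraries. The same replicate 1 libraries, WT+P and KO+P, had the lowest summed endothelial markers, 6698 and 7185 CPM against 9047 to 14270 CPM elsewhere, and the part of this in the hydrolase values was not tested. In bulk libraries fewer cells of a type and less RNA per cell cannot be told apart.

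**Figure D4:**
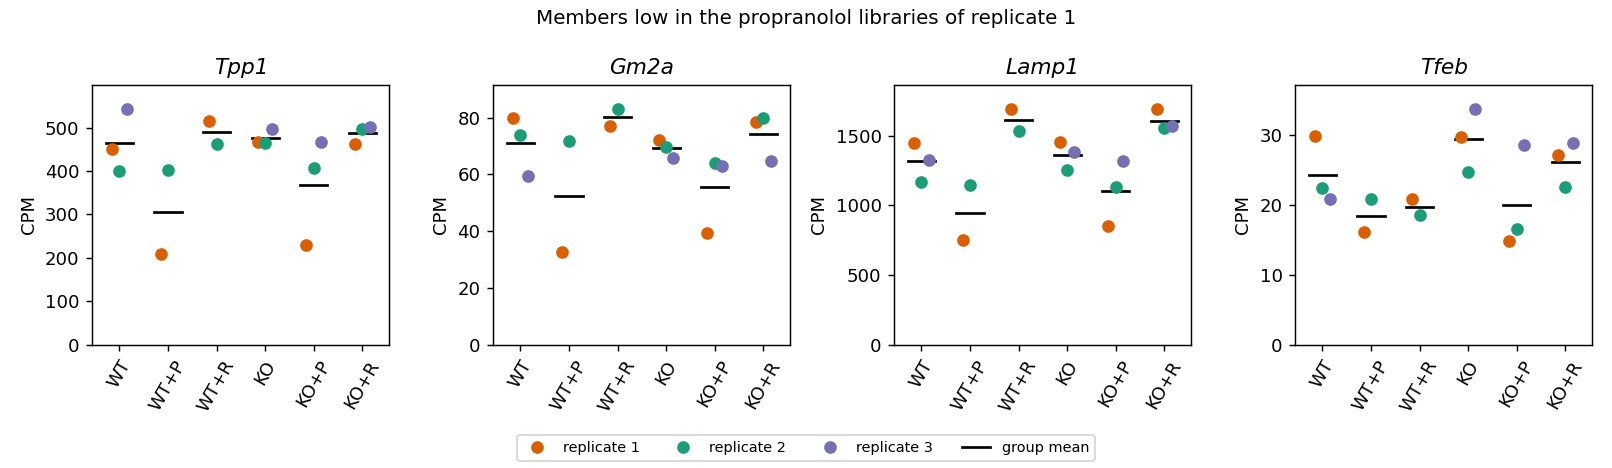
CPM of Tpp1, Gm2a, Lamp1 and Tfeb in each of the 16 libraries (points, coloured by replicate number) with group means (lines). In each genotype the propranolol library of replicate 1 was the lowest of all libraries of that genotype.

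Other hydrolases were higher in all 5 propranolol libraries than in their untreated partners: 2 cathepsins (Ctsc and Ctsz), 3 glycosidases (Gla, Idua and Neu1) and Asah1. In the same classes 4 cathepsins, 2 glycosidases and 1 cofactor were lower in all 5 (background 14.6% higher and 15.4% lower). Idua was at 60.1 and 56.2 CPM in WT+P and 61.2, 65.6 and 61.6 CPM in KO+P. Neu1, the sialidase of the lysosome, was at 59.8, 61.6 and 57 CPM in WT, 73 and 70.4 CPM in WT+P, 72.4, 91.8 and 74.7 CPM in KO and 95.9, 118 and 91.5 CPM in KO+P. Each propranolol library was above the untreated library of its number, by a log2 difference of 0.19 to 0.41, and the averaged fold change was 1.24 (log2 0.31 ± 0.09, adjusted p = 0.0858, or 0.0338 with the replicate block). Man2b1, an alpha-mannosidase, had an averaged log2 difference of -0.29 ± 0.11 (adjusted p = 0.157, or 0.0447 with the block). Both remained below the 1.5-fold threshold.

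Of the membrane proteins, Mcoln2 had the widest differences. It encodes TRPML2, a cation channel of endosomes and lysosomes (chr3:145855578-145901268, plus strand). Its level was 4.05, 6.8 and 4.06 CPM in WT, 0.134 and 1.68 CPM in WT+R, 8.13, 15.5 and 20.8 CPM in KO and 1.85, 4.39 and 5.39 CPM in KO+R. Every rapamycin library was below every untreated library of its genotype, and the averaged change was 4.55-fold lower (log2 -2.19 ± 0.50, adjusted p = 0.0186 by edgeR). The call was lost without WT+R replicate 1, the library at 0.134 CPM, where the log2 fold change was -1.74 with an adjusted p of 0.0602, and with an offset for effective transcript length (adjusted p = 0.073). It held in the 10 other fits that left out 1 library, and without WT+R replicate 2 the log2 fold change moved to -3.53 (adjusted p = 0.00514), so the size of the change depended on which WT+R library was kept. Within each genotype Mcoln2 did not pass by edgeR (KO+R against KO, log2 -1.93 ± 0.62, adjusted p = 0.185, and WT+R against WT, log2 -2.44 ± 0.78, adjusted p = 0.164). DESeq2 called it lower in both, with adjusted p of 0.0379 in KO+R against KO and 0.0146 in WT+R against WT.

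Mcoln2 was also at 13.9 and 5.92 CPM in WT+P and at 35.1, 26.6 and 20 CPM in KO+P. The propranolol library exceeded its untreated partner in replicates 1 and 2 of KO and replicate 1 of WT and did not in KO replicate 3 or WT replicate 2, and the averaged log2 difference of 0.94 ± 0.45 was not called (adjusted p = 0.243). In KO against WT all KO libraries were above all WT libraries, at a log2 difference of 1.57 ± 0.61 that did not pass (adjusted p = 0.7). Mcoln1, which encodes the related calcium channel TRPML1, was at 127 to 152 CPM in WT, 155 to 180 CPM in WT+R, 144 to 160 CPM in KO and 163 to 187 CPM in KO+R, a log2 difference of 0.21 ± 0.09 (adjusted p = 0.176, or 0.0242 with the block).

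Lamp1, an abundant glycoprotein of the lysosomal membrane, was at 1450, 1169 and 1328 CPM in WT, 751 and 1142 CPM in WT+P, 1452, 1250 and 1385 CPM in KO and 850, 1133 and 1314 CPM in KO+P. As with Tpp1, the low libraries were those of replicate 1, and the averaged log2 difference was -0.39 ± 0.14 (adjusted p = 0.126). Under rapamycin Lamp1 was at 1694 and 1534 CPM in WT+R and 1694, 1557 and 1571 CPM in KO+R, all above the untreated libraries, at a log2 difference of 0.27 ± 0.14 (adjusted p = 0.281). Other annotated genes share 49.4% of the exonic bases of Lamp1. Scarb2, the receptor that carries glucocerebrosidase to lysosomes, had an averaged log2 difference of -0.34 ± 0.15 under propranolol (adjusted p = 0.2, or 0.0427 with the block).

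In KO against WT none of the 54 genes was called, and 9 of them were higher in every KO library than in every WT library while 0 were lower in every one (background 6.69% higher and 6.5% lower). The median log2 difference was 0.06, beside -0.01 for all genes tested. Grn, the precursor of the granulins that support several lysosomal hydrolases, was at 678, 632 and 677 CPM in WT and 907, 824 and 962 CPM in KO, and between 869 and 987 CPM in treated KO cells against 645 to 722 CPM in treated WT cells. The groups did not overlap, at 1.36-fold (log2 0.44 ± 0.10, unadjusted p = 0.000807, adjusted p = 0.348 by edgeR, or 0.0682 with the replicate block). The library labelled WT replicate 1, which had the Pdcd10 level of a KO library, was at 678 CPM of Grn, beside the other WT libraries. Other annotated genes on the opposite strand share 33.1% of the exonic bases of Grn.

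Neu1 differed 1.34-fold between the separated KO and WT groups (adjusted p = 0.496). Tpcn1, which encodes the endolysosomal cation channel TPC1, was at 94.6, 101 and 102 CPM in WT and 138, 167 and 181 CPM in KO. These groups were also separated, at 1.63-fold (log2 0.71 ± 0.27, adjusted p = 0.68, or 0.0891 with the block), and when the block was used and the library labelled WT replicate 1 was left out, the gene passed at a log2 fold change of 0.87 and an adjusted p of 0.0479. Ctsa, the carboxypeptidase that protects Neu1 and beta-galactosidase, was at 553, 352 and 588 CPM in WT and 422, 237 and 272 CPM in KO, overlapping groups at a log2 difference of -0.68 ± 0.29 (adjusted p = 0.749). Of the exonic bases of Ctsa, 36.9% are shared with genes on the opposite strand. Ctsk, a collagen-degrading cathepsin, was at 1.06, 1.53 and 2.17 CPM in WT and 2.29, 3.64 and 6.88 CPM in KO, a log2 difference of 1.42 ± 0.57 (adjusted p = 0.724). The summed fibroblast markers were at 8.83, 37.5 and 84.7 CPM in WT and 6.93, 18.7 and 136 CPM in KO, in the order of Ctsk within each group, and their part in the Ctsk values was not tested. Ctsa, Ctsk and Tpcn1 were the 3 genes called by DESeq2 with the replicate block, with adjusted p of 0.00532, 0.00354 and 0.00656.

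**Figure D5:**
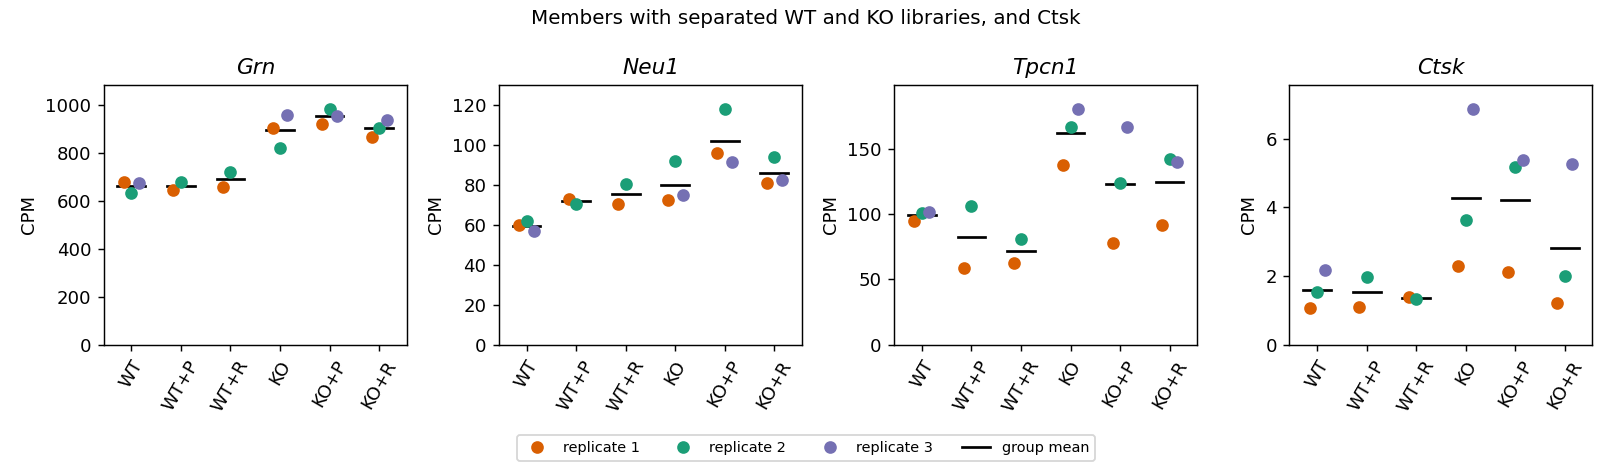
CPM of Grn, Neu1, Tpcn1 and Ctsk in each of the 16 libraries (points, coloured by replicate number) with group means (lines). In each panel the 3 KO libraries lay above the 3 WT libraries, and Grn kept this separation in every treated library.

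Of 75 other lysosomal genes, 67 were tested, and 3 changed under rapamycin averaged over the genotypes (background 5.29%). M6pr, the cation-dependent receptor that sorts mannose-phosphate-tagged enzymes to lysosomes, was higher (log2 0.63 ± 0.14, adjusted p = 0.0157), at 293, 286 and 296 CPM in WT, 602 and 418 CPM in WT+R, 221, 192 and 169 CPM in KO and 340, 249 and 206 CPM in KO+R. With the block M6pr had a log2 fold change of 0.56 (adjusted p = 0.00221), under the fold threshold, and 57.1% of its exonic bases are shared with Phc1. Tcirg1, an alternative large V0 subunit of the V-ATPase, was lower (log2 -0.63 ± 0.11, adjusted p = 0.00459), at 79 to 118 CPM in WT, 52.4 and 58.3 CPM in WT+R, 80.6 to 84.1 CPM in KO and 55.2 to 58.3 CPM in KO+R. As with Atp6v1a, its rapamycin libraries lay below all untreated libraries. Tfec, given above, was the remaining call. No other gene of the 67 was called by edgeR in KO against WT, in either drug against its untreated group or under propranolol averaged over the genotypes. With the replicate block, Cd68 was called lower under rapamycin (log2 -1.47, adjusted p = 0.00121) and Gpnmb higher (log2 0.86, adjusted p = 0.00398), while Scpep1 (log2 0.69, adjusted p = 0.0385) and Cln8 (log2 0.69, adjusted p = 0.0491) were called higher under propranolol (background 4.19% of all genes in either direction). Within genotypes the block fit called 1 of the 67 lower in KO+R against KO (background 4.98% in either direction). In WT+R against WT it called 2 higher and 2 lower (background 4.56%).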

How the data were processed

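Poly(A) RNA was sequenced as paired-end, unstranded libraries. Per the labels, reads were trimmed with Trim Galore 0.6.7 and quantified with Salmon 1.5.2 against GRCm39. The study's methods also describe alignment and gene counting, and those files were not used here. The deposited files hold, per transcript, estimated counts that the authors did not normalise, TPM scaled by the authors to transcript length and library total, and the effective length in bases. Estimated counts and TPM were summed per gene with GENCODE vM39, in which 99.12% of 140789 transcripts matched. The unmatched share was 0.39 to 0.57% of the counts. Counts were rounded, genes were filtered with filterByExpr, TMM factors (0.934 to 1.04) were computed, and all 16 libraries were fitted in 1 model of the 6 groups with edgeR 4.0.16 (glmQLFit, 10 residual degrees of freedom) in R 4.3.3. CPM are TMM-normalised. SE are the log2 fold change over the square root of the F statistic. Log2 CPM within replicate numbers used a prior count of 2. DESeq2 1.42.0 was an alternative, in which genes without an adjusted p were not counted as called. The fit was tested on simulated data. 15 of the 55 genes share over 10% of their exonic bases with other genes on either strand. Reads from bases shared with the opposite strand cannot be told apart without strand.

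The labels number the biological replicates but do not say that equal numbers share a culture. Deviations from group means correlated at 0.19 to 0.69 in all 13 same-number pairs of the groups compared. Over all groups the 36 same-number pairs ran from 0.032 to 0.69 (median 0.52). The 70 pairs of different number ran from -0.69 to 0.4 (median -0.23), so the ranges overlapped. Deviations cancel out within each group, so positive correlations between equal numbers bring negative ones between different numbers. The pairs of different number are therefore no separate evidence of pairing. The numbers were taken to pair the libraries. The block fit had 8 residual degrees of freedom, and the biological coefficient of variation was 32.3% without and 19% with the block.

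The genes, gene lists and tests were chosen with earlier results of these data known. Genes were given with library levels, in the groups of the comparison discussed, when called in any comparison with or without the block. The same held when they had the smallest p of their class in KO against WT or an averaged comparison, or when they were transcription factors. Others were named after their values were seen. Other lysosomal genes were named only where called.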

Additional observations from a re-analysis of the deposited data

How the results depend on the processing

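With the replicate block in edgeR, the count of called genes among the 54 rose from 2 to 3 for rapamycin averaged over the genotypes (Mitf added) and was the same as without it in the 8 other comparisons. Of all genes tested, this block fit called 0.182% in KO against WT, 0.142% in KO+P against KO and 0.0809% in WT+P against WT. It called 4.98% in KO+R against KO, 4.56% in WT+R against WT, 4.19% for averaged propranolol and 9.81% for averaged rapamycin. DESeq2 called 2 genes in KO+R against KO (473 among all genes), 1 in WT+R against WT (542) and 3 for averaged rapamycin (1044, with Mitf added to Ctsf and Mcoln2). DESeq2 with the replicate block called 3 in KO against WT (396 among all genes), 3 in KO+R against KO (1123) and 2 in WT+R against WT (978). In KO+R against KO the count was 0 without the filter on low counts (239 among all genes) and 0 with the effective length offset (152), and for averaged rapamycin it was 1 with that offset (666). Leaving out 1 library gave 0 to 1 genes in KO+P against KO (1 without KO+P replicate 3), 0 in KO+R against KO for each of the 6 libraries, 0 to 1 in WT+P against WT (1, Gm2a, without WT+P replicate 2), 0 to 3 for averaged propranolol (3 without WT+P replicate 2 and 1 without KO+P replicate 3) and 1 to 4 for averaged rapamycin (1 without WT replicate 3, WT+R replicate 1, KO replicate 2 or KO+R replicate 1, and 4 without KO+R replicate 2). For averaged propranolol the calls among all genes went from 235 to 1335 without WT+P replicate 2. Chosen after seeing the data, the block fit without the library labelled WT replicate 1 called 1 gene in KO against WT (Tpcn1) and 1 in WT+R against WT (Ctsd), and leaving out replicate 1 of every group called 0 in KO+R against KO and 2 for averaged rapamycin. Among all genes, leaving out 1 library gave 51 to 87 calls in KO+R against KO. For averaged rapamycin it gave 625 without WT replicate 3, 620 without KO replicate 2, 613 without KO+R replicate 1 and 685 without KO+R replicate 2. The block fit without the library labelled WT replicate 1 gave 66 in KO against WT and 405 in WT+R against WT. The causes were not tested. DESeq2's size factors in edgeR moved no count, and none of the 9 log2 fold changes recomputed for single genes turned sign under any alternative. Each group holds 2 or 3 cultures, and Mitf, Ctsk and Mcoln2 rest on few counts.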
